A study of Mus musculus with 18 samples.

Results

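The octamer TGACGCAA joins a half-site of the cAMP response element (CRE) to a C/EBP half-site. The 8-mers analysed here were the 30 that hold the first 7 or the last 7 bases of this chimera, on either strand, among 65530 8-mers in the deposited table. They were chosen by sequence and not by a measured value, but with earlier results of these data known. Comparisons of the members with all 8-mers are therefore not an independent test. In 15 of them the chimera reads on the strand that carries the modified cytosine, and in the other 15, their reverse complements, it reads on the strand that does not. Binding was read on protein binding microarrays, on which a fluorescent label shows how much of a protein each double-stranded DNA spot holds. CREB1, ATF1 and JUND, 3 mouse basic leucine zipper (bZIP) factors, were represented by their DNA-binding domains with a glutathione S-transferase tag, expressed in a cell-free system, so that no full-length protein and no cellular partner was present. One strand of each probe was printed and kept plain cytosine. The other was copied from it from a nucleotide mix whose cytosine was plain (C), methylated at position 5 (5-methylcytosine, 5mC) or hydroxymethylated there (5-hydroxymethylcytosine, 5hmC), which left modified DNA modified on that strand alone, at each of its cytosines. Each protein had 2 arrays with each of the 3 kinds of DNA, 18 arrays in 9 groups, and whether the 2 arrays of a group used separate protein preparations is not stated, so the p-values below cover array-to-array spread only, possibly of technical origin.

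bZIP proteins bind as dimers, each basic region lying in the major groove over its own half-site. CREB1 and ATF1 are closely related and bind the CRE palindrome TGACGTCA, whose centre is a CpG. C/EBP proteins bind the palindrome TTGCGCAA, made of 2 GCAA half-sites. JUND, a subunit of AP-1, binds the AP-1 site TGACTCA and also the CRE. The methyl group of 5mC sits at the ring position where thymine has its own methyl group, and 5hmC carries a hydroxymethyl group there.

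The chimera was read in these 2 orientations, with the 8 bases in capitals as written on the modified strand. In the first, the modified bases are the C of the central CpG and the C of GCAA. In the second, they are the other C of the central CpG and the C that pairs with the G of TGAC.
Chimera on the modified strand: TGACGCAA
Chimera on the unmodified strand: TTGCGTCA

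Each orientation had 15 members: the octamer, 7 other 8-mers with the first heptamer and 7 with the last heptamer. Below, the heptamer is in capitals and the flanking base in lower case. On the modified strand, those with the first heptamer were aTGACGCA, cTGACGCA, gTGACGCA, tTGACGCA, TGACGCAc, TGACGCAg and TGACGCAt. Those with the last heptamer were aGACGCAA, cGACGCAA, gGACGCAA, GACGCAAa, GACGCAAc, GACGCAAg and GACGCAAt. The first group keeps the whole CRE half-site TGAC and the second keeps the whole C/EBP half-site GCAA.

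The octamer lay on 17 probes in the first orientation and on 18 in the second, and no probe held both. The probes shown here had the 2 highest and the 2 lowest signals of each orientation on the unmodified CREB1 arrays. They show the bases that surrounded the site, with the octamer in capitals, written 5′ to 3′ on the modified strand.
Modified strand, highest: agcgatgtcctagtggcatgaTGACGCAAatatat
Modified strand, second highest: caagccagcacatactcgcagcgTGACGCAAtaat
Modified strand, second lowest: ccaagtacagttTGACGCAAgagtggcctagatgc
Modified strand, lowest: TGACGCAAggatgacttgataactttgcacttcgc
Unmodified strand, highest: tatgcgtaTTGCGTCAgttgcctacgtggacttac
Unmodified strand, second highest: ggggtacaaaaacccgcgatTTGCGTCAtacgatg
Unmodified strand, second lowest: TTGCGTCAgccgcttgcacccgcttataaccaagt
Unmodified strand, lowest: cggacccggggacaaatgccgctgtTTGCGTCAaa

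The measure used below is the authors' z-score of an 8-mer on an array, a score without unit whose median over all 8-mers was near 0 and whose scale is linear. Each orientation had its own z-score, which followed the signal over background of probes with that 8-mer on the copied strand (Spearman's rho from 0.957 to 0.974 over the 18 arrays, across 8-mers). The members were each carried by 13 to 22 probes, and 257 probes held any of them, so members share probes and are not independent of each other. Median probe signals ranged from 519 to 8014 over the arrays and were 1.55 to 14.0 times the local background. Over the 30 members, the 2 arrays of a group correlated with Pearson's r from 0.902 to 0.987, except for JUND 5hmC (0.545). The standard deviation of z over all 8-mers was 4.49 and 5.30 on the CREB1 C arrays, 2.54 and 1.64 on the 5mC arrays and 1.67 and 2.04 on the 5hmC arrays. The robust spread of z, from the median absolute deviation, was 0.992 to 0.997 over the 18 arrays, so the arrays differed mainly in their extreme 8-mers. Whether equal z-scores on 2 kinds of DNA stand for equal signals was not tested.

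On unmodified DNA, CREB1 bound the chimera in both orientations, and the base before TGACGCA moved the score by far more than the arrays differed. The octamer TGACGCAA had z-scores of 66.4 and 78.1, and TTGCGTCA had 38.5 and 51.4. A purine before the first heptamer went with the highest scores: gTGACGCA read 99.6 and 99.1, and aTGACGCA 82.8 and 82.1. A pyrimidine there went with lower ones, 15.9 and 31.7 for cTGACGCA and 9.96 and 10.8 for tTGACGCA. The purine-flanked values did not overlap the pyrimidine-flanked values. In the second orientation the same held for their reverse complements, with TGCGTCAc at 85.6 and 77.9 and TGCGTCAt at 85.1 and 104, against 42.2 and 49.3 for TGCGTCAg and 11.5 and 20.1 for TGCGTCAa. For the base after TGACGCA, the octamer was the highest of 4 in the first orientation. In the second it overlapped aTGCGTCA (48.8 and 51.4) and cTGCGTCA (45.8 and 49.8), while gTGCGTCA was above it, at 71.7 and 60.3. By mean the octamer was the lowest of the 4 there, at 44.9. The members with the last heptamer, which lack the first T of TGAC or leave it open, were low. In the first orientation they read from 1.54 to 10.3 over both arrays and all 7, and in the second from 1.16 to 18.4. Of the 15 members, 12 in each orientation reached a z-score of 4 on each of the 2 arrays, the level taken here as bound.

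For ATF1 on unmodified DNA the octamer was the highest member in the first orientation on both arrays, followed by the purine-flanked members. Its octamer values were 56.4 and 42.4 in the first orientation and 29.3 and 25.1 in the second. Its gTGACGCA values, 54.5 and 40.0, and its aTGACGCA values, 46.6 and 38.7, were above those of cTGACGCA (7.24 and 6.40) and tTGACGCA (6.22 and 9.92). JUND scored the octamer lower, at 17.6 and 5.32, and its arrays differed widely. Its highest member in the first orientation was TGACGCAt, at 67.6 and 10.6, whose reverse complement aTGCGTCA read 46.7 and 11.7. By mean the highest in the second orientation was TGCGTCAt, at 60.9 and 11.6.

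The 2 orientations of a site hold the same 8 base pairs, without modification on C arrays, but lie on different probes, so their difference there holds the printed strand and the flanking bases and positions together, which cannot be told apart. For CREB1, 4 of 15 pairs differed between orientations on unmodified DNA (limma over 32225 pairs, Benjamini-Hochberg adjusted p under 0.05), against 10.9% of all pairs, and all 4 were lower with the chimera on the modified strand. The difference was -36.9 for TGACGCAc, -22.0 for cTGACGCA, -19.9 for TGACGCAg and -5.44 for tTGACGCA. The count was 1 with scores recomputed as log2 probe signal, and 0 with these scores divided by their robust spread or with z-scores quantile normalized. For ATF1, 2 pairs were lower, TGACGCAg and cTGACGCA, against 6.23% of all pairs, a count of 0 without either ATF1 C array and 4 with only the ATF1 arrays in the fit. This difference is the baseline for the comparison of orientations on modified DNA below.

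With 5mC, the deposited CREB1 z-scores of members on the modified strand moved in different directions for the 2 heptamers. The sets also differed on unmodified DNA, at 1.54 to 10.3 for the last heptamer and 9.96 to 99.6 for the first. The half-site kept and the starting score therefore cannot be told apart. With quantile normalized z-scores, 5 of the 7 with the first heptamer and all 7 with the last were higher. Of the 7 with the last heptamer, whole in GCAA, 6 rose and none fell. Of the 7 with the first heptamer, whole in TGAC, 5 fell and none rose. Over the 15 members 6 rose, against 2.25% of all 65121 8-mers tested, and 5 fell, against 6.21%. The median change was 11.6 z units for the 7 with the last heptamer and -16.9 for the 7 with the first heptamer, against -0.0631 over all 8-mers.

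The largest rise was at cGACGCAA, which holds a second CpG and lacks the first T. It read 8.14 and 10.3 on unmodified DNA and 81.9 and 40.7 with 5mC, values that did not overlap, a rise of 52.1 ± 10.1 (SE, limma adjusted p = 0.00142). GACGCAAt rose by 42.1 (adjusted p = 0.0027) and GACGCAAc by 22.6 (adjusted p = 4.6e-05). GACGCAAg rose by 11.6, aGACGCAA by 7.11 and gGACGCAA by 5.60, while GACGCAAa was 4.55 higher without passing the test (adjusted p = 0.143). All 7 were higher with 5mC in every alternative run. A fit to the CREB1 arrays alone called 2 rises, without that of cGACGCAA (adjusted p = 0.167).

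The largest fall was at gTGACGCA, with 99.6 and 99.1 on unmodified DNA and 60.5 and 30.03 with 5mC. The groups did not overlap, and it fell by 54.1 ± 13.5 z units (SE, limma adjusted p = 0.0123). The other falls were TGACGCAc (-21.6), cTGACGCA (-16.1), TGACGCAg (-14.3) and tTGACGCA (-5.50). The 2 other members with the first heptamer did not pass the test: aTGACGCA read 80.2 and 40.3 and TGACGCAt 37.9 and 15.6 with 5mC. These falls depend on the scale of z. With quantile normalized z-scores none was called and 5 of the 7 members were higher, gTGACGCA by 11.8, and the count of falls was 2 with recomputed log2 signals and 0 with the scaled ones. It was 1 with only the CREB1 arrays, 3 without C replicate 1, 0 without C replicate 2, 3 without 5mC replicate 1 and 1 without 5mC replicate 2.

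The octamer itself, which keeps both half-sites, read 103 and 42.4 with 5mC, on either side of its values on unmodified DNA. The difference of 0.649 ± 12.6 did not pass the test (limma adjusted p = 0.989, 95% interval -25.7 to 27.0). This interval rests on a spread shared by all groups, while the 2 values with 5mC alone had a standard deviation of 43.1. With quantile normalized z-scores it was 44.4 higher (adjusted p = 4.9e-05). Among the 17 probes with the octamer, 2 and 4 were saturated on the C arrays and 4 and 6 on the 5mC arrays, and the part of saturation in the result was not tested.

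With the chimera on the unmodified strand, 5mC lowered CREB1 binding across the set. Of 15 members 14 fell and none rose, against 6.21% and 2.25% of all 8-mers. TTGCGTCA read 5.12 and 5.11 with 5mC, after 38.5 and 51.4. It fell by 39.8 ± 4.47 (limma adjusted p = 3.54e-06). The largest change was at TGCGTCAt, which read 85.1 and 104 before and 8.10 and 4.80 after and fell by 88.0 ± 14.1 (adjusted p = 0.000217). The 7 members with the first heptamer all fell, with changes from -88.0 to -14.0, as did 6 of the 7 with the last heptamer, with changes from -10.4 to -2.26. TTGCGTCc, at 1.16 and 2.60 before and -0.157 and 0.275 after, did not pass the test (adjusted p = 0.088). Each of these 14 members was lower in every alternative run, and with quantile normalized z-scores 8 falls were called.

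With 5hmC, the octamer's CREB1 score fell in the second orientation and did not pass the test in the first. TGACGCAA read 59.2 and 67.6, a difference of -8.84 ± 12.6 from unmodified DNA (limma adjusted p = 0.793, 95% interval -35.2 to 17.5). With quantile normalized z-scores it was 56.7 higher (adjusted p = 6.57e-06), so its direction is not settled. TTGCGTCA read 2.32 and 1.65 and fell by 42.9 ± 4.47 (adjusted p = 1.33e-06). On the modified strand 5 members fell, all with the first heptamer, and none rose, against 6.78% and 1.12% of all 8-mers. At an unadjusted p under 0.05, 6 were lower and 1 higher, where 12144 of all 65121 8-mers passed in either direction. gTGACGCA fell by 45.5 ± 13.5 to 42.3 and 65.3 (adjusted p = 0.0413), and the changes at TGACGCAc, TGACGCAg, cTGACGCA and tTGACGCA were -23.6, -18.1, -17.9 and -8.65. The 7 members with the last heptamer did not pass the test, with GACGCAAt at 17.7 and 24.9 after 8.38 and 8.88, and cGACGCAA at 14.4 and 23.4. The count of 5 falls was 3 without C replicate 2, 1 without 5hmC replicate 1, 3 with only the CREB1 arrays and 1 with scaled recomputed scores. With quantile normalized z-scores it was 0, 3 members rose, and gTGACGCA was 28.3 higher.

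In the other orientation 14 of 15 members fell with 5hmC, again without TTGCGTCc, and none of the 15 reached a z-score of 4 on either array. TGCGTCAt fell by 93.3 ± 14.1 to 1.10 and 1.14 (limma adjusted p = 0.000119). With 5mC, 4 of the 15 had reached that level on both arrays, and 6 on at least 1. The comparisons of 5mC and of 5hmC with C share the C arrays.

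Set directly against 5mC, 5hmC gave CREB1 lower scores at 4 members on the modified strand and higher ones at none, against 0.766% and 0.186% of all 8-mers. All 4 hold the last heptamer. cGACGCAA fell by 42.4 from 5mC to 5hmC. The count was 1 without 5mC replicate 1, 0 without 5hmC replicate 1, 2 without 5hmC replicate 2, 0 with only the CREB1 arrays, and from 0 to 2 with quantile normalized or recomputed scores. In the other orientation no member was called in either direction by limma. At an unadjusted p under 0.05, 1 was lower, where 8000 of all 65121 8-mers passed in either direction.

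The test of orientation compares, on each array, a member on the modified strand with its reverse complement. For CREB1 with 5mC, 12 of 15 pairs were higher with the chimera on the modified strand and none lower, against 14.6% of all pairs in either direction. With 5hmC 10 were higher, against 14.5%, a count of 5 without 5hmC replicate 1 and 3 without 5hmC replicate 2. For the octamer, the difference TGACGCAA minus TTGCGTCA was 27.9 and 26.7 on the C arrays, 98.2 and 37.3 with 5mC, and 56.9 and 65.9 with 5hmC. All 6 values were above 0, and those with modification were above those without it.

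The change of this difference from C to modified DNA was positive for all 15 pairs with CREB1, with either modification and in every alternative run. With 5mC it passed the test for 13 pairs, against 4.43% of all pairs, and with 5hmC for 5, against 3.57%. The largest was at aTGACGCA, whose difference from TGCGTCAt moved from -2.29 and -21.7 on C to 72.1 and 35.5 with 5mC, by 65.8 ± 10.9 (limma adjusted p = 0.000668). With 5hmC it moved to 44.8 and 59.7, by 64.3 ± 10.9 (adjusted p = 0.00122). The octamer's own change of 40.5 ± 13.2 with 5mC did not pass (adjusted p = 0.0994), nor did that of 34.1 ± 13.2 with 5hmC (adjusted p = 0.192). Without 5mC replicate 1 the 5mC change was 9.99 (adjusted p = 0.795). It passed with quantile normalized z-scores and with recomputed log2 signals for both modifications, with 5mC also without 5mC replicate 2 (70.9, adjusted p = 0.000297) and among 8-mers on at least 10 probes, and with 5hmC also with the scaled recomputed scores. The count of 13 was 7 with scaled recomputed scores, and the count of 5 was 9 and 10 with the recomputed scores.

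For ATF1 no change at the octamer passed on the modified strand, while the octamer of the other orientation fell. On the modified strand TGACGCAA read 45.1 and 44.0 with 5mC and 37.7 and 27.3 with 5hmC, and neither difference passed the test (-4.86 ± 12.6, limma adjusted p = 0.899, and -16.9 ± 12.6, adjusted p = 0.606). With quantile normalized z-scores both were positive, 90.5 and 46.9, while with only the ATF1 arrays the 5hmC difference passed as a fall (adjusted p = 0.0352), so that the octamer's direction is not settled for ATF1 either. TTGCGTCA read 3.40 and 2.57 with 5mC and 1.81 and -1.16 with 5hmC. It fell by 24.2 ± 4.47 (adjusted p = 0.00661) with 5mC, and it fell by 26.9 ± 4.47 (adjusted p = 0.00356) with 5hmC.

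With 5mC, 2 members on the modified strand rose for ATF1 and none fell, against 1.19% and 2.06% of all 8-mers. At an unadjusted p under 0.05, 5 were higher, where 11275 of all 65121 8-mers passed in either direction. GACGCAAa rose by 6.54 ± 1.77, from 4.63 and 3.52 to 10.0 and 11.2 (limma adjusted p = 0.048), and gGACGCAA rose by 3.92. cGACGCAA read 23.97 and 30.9 after 5.38 and 4.30, with no overlap, and did not pass (adjusted p = 0.245). All 7 members with the last heptamer were higher in every alternative run, and the 7 with the first heptamer were lower except with quantile normalized z-scores, where all 7 were higher. The count of 2 rises was 0 without any one of the 4 ATF1 arrays of this comparison, 0 with the replicate number as a block (GACGCAAa at adjusted p = 0.0601), 0 without the JUND arrays, 1 with recomputed log2 signals, 6 with only the ATF1 arrays, where 4 members fell, and 9 with quantile normalized z-scores.

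In the other orientation 7 of 15 members fell for ATF1 with 5mC and none rose, against 2.06% and 1.19% of all 8-mers. The largest change was at TGCGTCAc, which read 46.1 and 35.4 before and 1.58 and 1.62 after and fell by 39.1 ± 8.02 (limma adjusted p = 0.0115). The count was 1 without C replicate 1, 3 without C replicate 2, 1 without either 5mC array, and 13 with only the ATF1 arrays.

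With 5hmC, 9 members fell in that orientation and none rose, against 2.08% and 0.0998%. TGCGTCAc fell by 40.8 ± 8.02 to -0.0452 and 0.00123 (adjusted p = 0.01), and cTGCGTCA fell by 30.1 ± 3.23 (adjusted p = 0.000112). The count was 4 without either C array, 1 without 5hmC replicate 1, 2 without 5hmC replicate 2, and 14 with only the ATF1 arrays. None of the 15 reached a z-score of 4 on any modified ATF1 array, while 11 did on both C arrays. The standard deviation of z over all 8-mers was 2.76 and 2.56 on the ATF1 C arrays. It was 1.29 and 1.34 with 5mC and 1.20 and 1.18 with 5hmC, so a fixed level is not alike across them. On the modified strand limma called no member with 5hmC. At an unadjusted p under 0.05, 2 were lower, where 9179 of all 65121 8-mers passed in either direction. With only the ATF1 arrays in the fit 8 fell, and with quantile normalized z-scores 2 rose.

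Between 5hmC and 5mC, limma called no member for ATF1, against 0.134% of all 8-mers higher and 0.591% lower. At an unadjusted p under 0.05, 5 were lower on the modified strand and 3 in the other orientation. At that level 10633 of all 65121 8-mers passed in either direction. On the modified strand 7 fell with only the ATF1 arrays and 7 with quantile normalized z-scores.

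In the orientation test 9 ATF1 pairs were higher on the modified strand with 5mC and 3 with 5hmC, and none was lower, against 20.5% and 9.25% of all pairs. Without one 5mC array the 9 became 5 (replicate 1) or 2 (replicate 2), and without either 5hmC array the 3 became 0. Other settings moved the 3 to between 6 and 10. The change from C was positive for all 15 pairs with either modification in every alternative run. It passed for 5 pairs with 5mC, against 1.46%, and for 1, TGACGCAg, with 5hmC, against 0.0403% of all pairs. For TGACGCAg it was 24.2 ± 3.98 with 5mC (limma adjusted p = 0.00548) and 22.3 ± 3.98 with 5hmC (adjusted p = 0.043). The 5 were 0 without either C array or 5mC replicate 2, 1 without 5mC replicate 1, 14 with only the ATF1 arrays and 11 with quantile normalized z-scores. The 1 was 0 without any one of its 4 arrays or without the JUND arrays.

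The changes of CREB1 and ATF1 were set against each other in an interaction test. Limma called no member as different between them, for 5mC or for 5hmC, where 0.272% and 0.215% of all 8-mers were called. At an unadjusted p under 0.05, 4 members on the modified strand and 12 in the other orientation differed with 5mC, and 2 and 11 with 5hmC. At that level 3513 of all 65121 8-mers differed with 5mC and 3530 with 5hmC. Without CREB1 C replicate 1 the test called 2 members on the modified strand and 7 in the other orientation with 5mC, and 2 and 6 with 5hmC. Without CREB1 C replicate 2 it called 3 in the other orientation with each modification, and without CREB1 5mC replicate 2 it called 4 on the modified strand with 5mC.

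For JUND no member was called with 5mC, against 0.799% of all 8-mers higher and 0.244% lower, nor with 5hmC, where limma called 0% of 8-mers higher and 0% lower, with 6123 at an unadjusted p under 0.05. At that unadjusted level 2 members on the modified strand and 3 in the other orientation were lower, with either modification. With 5mC, 10844 of all 65121 8-mers passed it in either direction. The octamer TGACGCAA read 10.0 on the one 5mC array with a value (the other cell is null, and the fit uses the first alone) and 5.70 and 3.07 with 5hmC. TTGCGTCA read 9.05 and 2.65 on C, 0.874 and 1.27 with 5mC, and 0.123 and 1.31 with 5hmC. By the mean of the arrays with a value, the highest member with 5mC was the octamer, from 1 array, and with 5hmC aTGACGCA, at 8.81 and 3.18. Without C replicate 2, 2 members on the modified strand and 3 in the other orientation fell with each modification. In the orientation test 2 JUND pairs were higher on the modified strand with 5mC, against 27% of all pairs in either direction, gGACGCAA by 2.63 ± 0.825 (limma adjusted p = 0.0229) and GACGCAAa by 3.87 ± 1.05 (adjusted p = 0.0098). All 15 differences were above 0 with 5mC, the octamer's from 1 array. The count of 2 was 1 without 5mC replicate 1, 0 without 5mC replicate 2, 5 with quantile normalized z-scores, and 4 and 7 with the recomputed scores. Limma called no pair on C, against 18.5% of all pairs, or with 5hmC, against 10.6%, with 2 pairs and none at an unadjusted p under 0.05. No JUND pair passed for the change of the orientation difference, against 2.61% of all pairs with 5mC and 0% with 5hmC, with 1 pair and none at an unadjusted p under 0.05. The share of all pairs at that unadjusted level is not given here.

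Within each array the octamer on the modified strand moved up in rank on modified DNA for CREB1 and ATF1. A rank does not depend on the scale of z. Among 65121 8-mers TGACGCAA ranked 76 and 71 for CREB1 on C, 4 and 7 with 5mC, and 2 and 5 with 5hmC. For ATF1 it ranked 27 and 39 on C, 1 on both 5mC arrays and 3 on both 5hmC arrays. TTGCGTCA went the other way, from 159 and 167 for CREB1 on C to 1090 and 748 with 5mC and 3583 and 6539 with 5hmC.

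The CRE palindrome TGACGTCA read 193 and 136 for CREB1 on C, 33.7 and 12.0 with 5mC, and 27.5 and 44.9 with 5hmC. It fell by 142 with 5mC (limma adjusted p = 1.91e-06), and it fell by 129 with 5hmC (adjusted p = 6.14e-06). The octamer minus the palindrome was -127 and -58.4 on the C arrays, 69.7 and 30.4 with 5mC, and 31.8 and 22.6 with 5hmC. The exact permutation test of this difference, two-sided over 2 against 2 arrays, gave p = 0.333 for each modification, the smallest value that the design allows. The calls of the palindrome's own falls were lost in both recomputed scores (adjusted p = 0.157 and 0.577 with 5mC, 0.232 and 0.817 with 5hmC).

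The C/EBP palindrome TTGCGCAA read 3.73 and 5.81 on C, 32.0 and 23.3 with 5mC and 6.97 and 10.4 with 5hmC. It rose by 22.9 with 5mC (limma adjusted p = 1.97e-05, and 0.0514 with only the CREB1 arrays) and stayed below the octamer on each of the 6 CREB1 arrays. The CpG-free composite TGATGCAA differs from the octamer by C4T, counted from 1 at the 5′ end of the chimera. It read 8.81 and 15.4 on C, 76.8 and 36.8 with 5mC, and 113 and 164 with 5hmC, and its rise of 126 with 5hmC passed the test (adjusted p = 1.91e-05). The octamer minus the composite was 57.6 and 62.7 on C, 26.5 and 5.65 with 5mC and -54.1 and -96.3 with 5hmC. The exact permutation p of this difference was again 0.333 for each modification. For the octamer minus the C/EBP palindrome, the exact permutation p was 0.667 with 5mC and 0.333 with 5hmC. Written in the other orientation, as TTGCATCA, the composite was at 0.849 and 0.669 with 5hmC.

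Each base of the octamer was also exchanged in turn, which gives 24 neighbours per orientation, 6 of them members. Values here are mean z-scores of the 2 CREB1 arrays, without a test. On unmodified DNA in the first orientation, C6T, which turns the site into TGACGTAA, gave the highest neighbour, 150. Every change at positions 1, 3, 4 and 5 gave 12.1 or less, and those at position 2 gave 2.66 to 19.1. Changes in the C/EBP half-site at positions 7 and 8 left 27.9 to 43.7. With 5mC, the neighbours changed at position 7 or 8 read 7.57 to 26.8. Each of the 12 changes in the CRE half-site read higher with 5mC than on C. Of these, 3 were above 26.8: T1C at 61.3 (9.24 on C), G2T at 47.4 (19.1 on C) and C4T at 56.8 (12.1 on C). The other 9 read 1.35 to 19.2, after 0.655 to 9.30 on C. C6T fell to 33.4. With 5hmC, C4T read 139 and C6T 47.1, and no other neighbour was above 26.6. In the other orientation the highest neighbour with 5mC was C6T, TTACGTCA, at 5.07 after 104 on C.

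Since members share probes, the probes were also sorted into 3 sets per orientation with none in common. Signals are given as a fold of the array's median background-subtracted signal, and each value is the median over a set. On the modified strand, the 50 probes with the first heptamer but not the octamer were at 6.99 and 9.26 for CREB1 on C, 4.10 and 2.73 with 5mC, and 2.31 and 2.20 with 5hmC. The 58 probes with the last heptamer alone were at 1.81 on both C arrays, 6.86 and 3.48 with 5mC and 2.04 and 1.81 with 5hmC. The first set was lower and the second higher on both 5mC arrays than on the C arrays. The 17 probes with the octamer were at 18.7 and 15.3 on C, 32.7 and 11.1 with 5mC and 16.3 and 11.3 with 5hmC, so the arrays overlapped for 5mC.

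In the other orientation the 18 octamer probes went from 12.6 and 13.1 on C to 2.60 and 2.00 with 5mC and to 1.66 and 1.21 with 5hmC. The 59 probes with the first heptamer alone went from 14.8 and 12.5 to 2.39 and 1.70, and then to 1.06 and 1.10. The 55 with the last heptamer alone went from 1.66 and 1.94 to 1.05 on both 5mC arrays. For ATF1 the 58 probes with the last heptamer on the modified strand went from 1.62 and 1.31 on C to 2.83 and 3.19 with 5mC, and the 18 octamer probes of the other orientation from 6.98 and 7.43 to 2.00 and 1.66.

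Single probes with TTGCGTCA were mostly lower on modified DNA for CREB1 and ATF1, while those with TGACGCAA were mixed. A probe was counted when both its modified-DNA values, as folds of the array median, lay beyond both its C values. Of 18 probes with TTGCGTCA, 16 were lower and none higher for CREB1 with 5mC, and 18 and none with 5hmC, where 29.6% and 30.7% of all 40330 probes were lower and 21.5% and 23.5% higher. For ATF1, 16 were lower with 5mC and 17 with 5hmC, and none was higher, against 29.6% and 24.6% of all probes lower. Of 17 probes with TGACGCAA, 4 were higher and none lower for CREB1 with 5mC, and 4 were higher and 4 lower with 5hmC. The counts of higher probes were near the shares of all probes higher, 21.5% and 23.5%. The shares lower were 29.6% and 30.7%. For ATF1, 9 were higher and 7 lower with 5mC and 4 higher and 8 lower with 5hmC, against 29.6% and 16.2% of all probes higher.

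Signals differed with the base before the octamer. On the CREB1 C arrays, background-subtracted signals of octamer probes had medians of 49368 and 57886 with G before it (4 probes), 18459 and 31052 with A (5 probes), 6695 and 18259 with C (4 probes) and 3324 and 5572 with T (3 probes). With 5mC the G group was at 54436 and 60170, near the scanner's limit, and the T group at 21726 and 38498. With 5hmC they were at 44961 and 41450 and at 2858 and 4206. The probe with the highest signal, with a before and after the octamer, read 62633 and 57640 on C, 61199 and 62271 with 5mC and 48426 and 43650 with 5hmC. The lowest, with the octamer at its 5′ end, read 2360 and 4407 on C, 8719 and 17940 with 5mC and 1848 and 2034 with 5hmC. Signal also tracked the number of bases before the octamer (Spearman's rho 0.668 and 0.645 over the 17 probes on the CREB1 C arrays, which share the flanking bases above), less so for TTGCGTCA (0.234 and 0.0595 over 18 probes).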

How the data were processed

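Each of the 18 array files holds, per the file headers, the median signal intensity and median local background intensity of 40330 probes with a 35-base variable part. A second table, deposited by the authors, gives 1 score (a z-score) for every 8-mer on every array. How the authors made this score before depositing it, and with which scanner and software, was not given in the sources used here. Those 8-mers on no probe (409) were left out, and 65121 were tested. Limma 3.58.1 in R 4.3.3 was fitted to the z-scores of all 18 arrays with 1 mean per group, empirical Bayes moderation along a mean-variance trend and two-sided p-values adjusted after Benjamini-Hochberg (threshold 0.05), and likewise to 32225 within-array differences between an 8-mer and its reverse complement. All groups share 1 spread per 8-mer, so the JUND C arrays, which differ widely, bear on the other proteins' tests. Background was subtracted from probe signals, and a raw signal of 65000 or more was taken as saturated. Recomputed scores were medians of log2 signal floored at 10. The fits were tested on simulated data. Python 3.11.15 and scipy 1.17.1 were used elsewhere. The named 8-mers were all 30 members, with values by array for the octamer and the largest rise and fall past the test in each orientation for CREB1 and ATF1, 3 related sites, the single-base neighbours and the extreme probes. The members and lists were chosen with earlier results of these data known.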

Additional observations from a re-analysis of the deposited data

How the results depend on the processing

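For CREB1 and ATF1, the directions of change of the 15 pairs of orientations, of the CREB1 changes in the second orientation and of the 5mC changes of first-orientation members with the last heptamer held in all alternatives, while counts of calls moved. The cause was not tested for any of these. Counts are given as 5mC or 5hmC against C unless stated, and "first" and "second" name the orientation with the chimera on the modified and on the unmodified strand.

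What arrays with the same replicate number share is not stated. Their deviations from the group means correlated between -0.104 and 0.636 over 6 comparisons, with the highest value for JUND, between 5hmC and C. The source of this correlation was not tested. With the replicate block, the 2 ATF1 5mC rises (first) and the 1 ATF1 5hmC pair became 0 (GACGCAAa then had adjusted p = 0.0601), and no other count moved by over 1.5 times. Without a variance trend, the first orientation had 1 ATF1 5hmC fall and 1 fall from 5mC to 5hmC, the second had 3 CREB1 and ATF1 differences with each modification, 2 ATF1 5hmC pairs changed, and 1 JUND pair was called on C. With 8-mers on at least 10 probes, there was 1 ATF1 5hmC fall (first), 1 JUND 5mC fall and 1 5hmC difference between CREB1 and ATF1 (second), and the CREB1 5mC octamer pair passed (40.5, limma adjusted p = 0.0348). Without the JUND arrays, chosen after seeing the data, ATF1 had 0 5mC rises and 1 5hmC fall (first) and 0 pairs changed with 5hmC.

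With only the protein's arrays, the first orientation had 2 CREB1 5mC rises, 1 5mC fall, 3 5hmC falls and 0 falls from 5mC to 5hmC, and for ATF1 6 rises and 4 falls with 5mC, 8 falls with 5hmC and 7 from 5mC to 5hmC. ATF1 falls in the second were 13 and 14. ATF1 pairs called were 4 on C and 9 with 5hmC, and 14 and 3 for the change, with the octamer's 5hmC change at -16.9 (adjusted p = 0.0352) and its pair at 19.4 with 5mC (adjusted p = 0.00715).

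With quantile normalized z-scores, the octamer on the modified strand changed by 44.4 and 56.7 for CREB1, 90.5 and 46.9 for ATF1 and 24.7 for JUND with 5mC, and gTGACGCA by 11.8 and 28.3 for CREB1. Its pair changed by 53.5 and 68.7 for CREB1 and by 106 and 65.2 for ATF1. In the first orientation CREB1 then had 0 falls with each modification, 3 5hmC rises and 1 fall from 5mC to 5hmC, ATF1 9 and 2 rises and 7 falls from 5mC to 5hmC, and JUND 1 5mC rise. In the second, CREB1 had 8 5mC falls and JUND 4 and 3 falls. Pairs called were 0 for CREB1 on C, 6 for ATF1 with 5hmC, 5 for JUND with 5mC, and for the change 11 and 4 for ATF1 and 1 for JUND with 5mC.

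With recomputed log2 signals, CREB1 had 2 5mC falls and 2 falls from 5mC to 5hmC, ATF1 1 5mC rise (first), and pairs called were 1 for CREB1 on C, 7 for ATF1 with 5hmC, 4 and 5 for JUND with 5mC and 5hmC and 9 for the CREB1 5hmC change. The octamer pair changed by 2.67 and 2.86 (log2) for CREB1 and by 1.94 for ATF1 with 5mC. Scaled, these scores gave 0 CREB1 5mC falls, 1 5hmC fall and 0 from 5mC to 5hmC (first), 3 and 2 JUND falls (second), pairs called of 0 for CREB1 on C, 10 for ATF1 with 5hmC and 1, 7 and 2 for JUND on C, 5mC and 5hmC, 7 and 10 for the CREB1 changes, and 10.2 for the CREB1 5hmC octamer pair.

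Leaving out each array in turn gave these ranges. In the first orientation CREB1 had 0 to 3 falls with 5mC, 1 to 4 with 5hmC and 0 to 6 from 5mC to 5hmC, ATF1 0 5mC rises, and JUND 0 to 2 falls with each modification. In the second ATF1 had 1 to 3 falls with 5mC and 1 to 4 with 5hmC, and JUND 0 to 3 with each. Differences between CREB1 and ATF1 numbered 0 to 4 (first) and 0 to 7 (second) with 5mC, and 0 to 2 and 0 to 6 with 5hmC. Pairs called were 3 to 5 for CREB1 with 5hmC, 0 for ATF1 on C, 2 to 5 with 5mC and 0 with 5hmC, 0 to 1 for JUND on C and with 5mC, and for the ATF1 change 0 to 1 and 0. TTGCGTCA changed by -26.3 to -22.1 for ATF1 with 5mC and by -29.0 to -24.8 with 5hmC, and the CREB1 5mC octamer pair by 9.99 to 70.9. With 2 arrays per group and 1 spread shared by all groups, the 95% interval of the octamer's CREB1 change with 5mC ran from -25.7 to 27.0. The 2 values with 5mC alone had a standard deviation of 43.1, so this interval can understate their spread.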
